A study of Mus musculus with 13 samples.

Results

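Deleting a gene can disturb the genes beside it, and the genes that flank Lmo2 and Tal1 in the mouse genome were read here for such local differences in cells that lack LMO2 or TAL1. They are 10 of the 45250 genes in the deposited expression table and were chosen as neighbours of these loci, though other genes of the table, among them Gm13880 and Cyp4x1os, lie nearer than some of them. Caprin1, Cat, Abtb2, Nat10, Fbxo3 and Cd59a lie around Lmo2 on chromosome 2, and Stil, Pdzk1ip1, Cmpk1 and Cyp4x1 lie around Tal1 on chromosome 4. RNAseq was made from Flk-1+ cells, haemangioblasts isolated from embryoid bodies of differentiating mouse embryonic stem (ES) cells, and from HE1, the Tie2+ Kit+ CD41- haemogenic endothelium that Flk-1+ cells form in blast culture. Flk-1+ cells of 3 genotypes, WT, Lmo2-/- and Tal1-/-, gave 3 libraries each, and HE1 gave 2 WT and 2 Lmo2-/- libraries, which makes 13. The WT cells came from the ES line CCB, and the study names 1 Lmo2-/- and 1 Tal1-/- line beside it, with no strain given in the labels; a further Lmo2-/- line with inducible LMO2 is described for other experiments. All 5 groups come from ES cells in culture, and there were no Tal1-/- HE1 libraries. The study calls the libraries independent and the samples biological replicates, without saying that each library is a separate differentiation. They do not repeat the ES line, so a genotype cannot be told apart from its line, and the p-values measure the spread between these libraries.

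LMO2 is an adaptor protein that binds no DNA itself and joins TAL1, a basic helix-loop-helix factor that binds E-boxes, to GATA factors and LDB1 in a complex that starts blood development. Enhancers of Lmo2 and of Tal1 are known to lie outside the genes, among and beyond their neighbours. The neighbours have unrelated duties. Several, such as Caprin1 and Cmpk1, serve functions that most cells need, while others are active in few tissues.

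The values are FPKM, in which fragments are scaled by transcript length and by library size, so that levels of different genes can be compared per length. The study states a minimum number of reads for every library, but the exact depth of each is unknown, since the files hold no fragment counts. Between 11861 and 15641 genes were above 0 in 12 libraries, against 9694 in Lmo2-/- HE1 replicate 1, which listed 183 of the 4062 best expressed genes (median above 10 FPKM) at 0. A value of 0 is therefore given only as listed. Lmo2 had 22.8, 30.8 and 21.6 FPKM in WT Flk-1+ cells, 2.63, 6.48 and 2.17 in Lmo2-/- and 0, 7.58 and 1.29 in Tal1-/-. Tal1 had 37.4, 25.6 and 22.0 FPKM in WT, 6.51, 29.0 and 6.64 in Lmo2-/- and 2.74, 3.41 and 2.88 in Tal1-/- Flk-1+ cells. In Flk-1+ cells each targeted gene was thus lower in every library of its knockout than in every WT library. In HE1 Lmo2 overlapped between the genotypes, with 4.30 and 20.6 FPKM in WT and 6.42 and a listed 0 in Lmo2-/-. Kdr, which encodes Flk-1, was at 68.7 to 86.0 FPKM in Tal1-/- Flk-1+ cells, below every WT (100 to 252) and Lmo2-/- (101 to 151) Flk-1+ library. The summed FPKM of Tek, Kit, Cdh5 and Pecam1, which mark haemogenic endothelium, was 4.997 to 13.3 in Flk-1+ cells and 674 to 742 in HE1. Its members did not move together in Tal1-/- Flk-1+ cells. Tek was listed at 0 in every Tal1-/- library and Cdh5 was at most 0.279 FPKM there, against at least 0.337 and 0.841 in the other Flk-1+ libraries. Kit was at 4.58 to 10.7 FPKM in Tal1-/- against at most 4.24 in the others, and Pecam1 overlapped. Of 4 genes read as marks of haematopoietic progenitors, Ptprc, a marker of committed blood cells, was listed at 0 in every library. Itga2b, which encodes CD41, had 10.4 to 15.4 FPKM in WT HE1 and a listed 0 and 19.8 in Lmo2-/- HE1. In Flk-1+ cells Itga2b had 1.59 to 5.54 FPKM in WT, 0.306 to 2.13 in Lmo2-/- and 0 to 3.12 in Tal1-/-. Gata1 and Spi1 were above 0 in every WT Flk-1+ library and listed at 0 in every HE1 library.

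The neighbour that stood apart was Pdzk1ip1, which encodes a small membrane protein also called MAP17 and begins downstream of Tal1, on the same strand. By GENCODE it spans 115088708 to 115093899 of chromosome 4 (GRCm38), 16.953 kb beyond the end of Tal1 (115056426 to 115071755). In Tal1-/- Flk-1+ cells it had 22.2, 11.8 and 6.61 FPKM. In WT Flk-1+ cells it had 2.56 and 1.80 FPKM in replicates 0 and 1 and was listed at 0 in replicate 2. In Lmo2-/- Flk-1+ cells it was listed at 0 in replicates 0 and 1 and had 0.428 FPKM in replicate 2. It was listed at 0 in all 4 HE1 libraries. Every Tal1-/- library was above all 10 others, and the lowest of them was 6.61 against a highest value of 2.56 elsewhere. Of all 13802 genes tested, 94 (0.681%) had their 3 Tal1-/- libraries above the 10 others. That count takes in genes, such as Cyp4x1os, that met the filter on low values through their Tal1-/- libraries alone.

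No gene of the whole table was called between Tal1-/- and WT Flk-1+ cells (0.0% of 13802 tested; 843 had an unadjusted limma p below 0.05), and so 0 of the 9 tested neighbours were. A call needed a limma p below 0.05 after Benjamini-Hochberg adjustment, and also 1 compared group with a mean above 10 FPKM. Pdzk1ip1 differed by 2.61 on the log2(FPKM + 1) scale between Tal1-/- and WT (standard error 0.52, 95% interval 1.48 to 3.74, limma adjusted p = 0.164). Counting itself, 7 tested genes (0.0507%) had a difference at least as large in that direction. Against Lmo2-/- Flk-1+ cells, Pdzk1ip1 in Tal1-/- was higher by 3.54 (standard error 0.52, 95% interval 2.41 to 4.67, limma adjusted p = 0.0564), and 2 genes (0.0145%) differed by as much. In that comparison 0.0145% of the genes were called and again 0 of the 9 neighbours. Both comparisons share the Tal1-/- libraries. The exact permutation test, two-sided, gave p = 0.10 in each, the smallest that 3 against 3 libraries allow.

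The limma adjusted p of Pdzk1ip1 was close to the threshold against Lmo2-/- (0.0564) and farther from it against WT (0.164), and each crossed it in some fits. Over the alternatives the limma adjusted p ran from 0.0415 to 0.549 against WT, below 0.05 with array weights alone, and from 0.0182 to 0.41 against Lmo2-/-, below 0.05 in 5 of 23. These 5 were quantile normalization, rescaling to a common median, no mean-variance trend, array weights and leaving out WT Flk-1+ replicate 2 (adjusted p = 0.0345 without it). The direction was the same in each, and without any 1 library the difference lay between 2.06 and 3.002 against WT and between 3.13 and 3.94 against Lmo2-/-. On the log2(FPKM + 0.1) scale, which gives low values more room, it was 3.93 and 6.12.

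**Figure D1:**
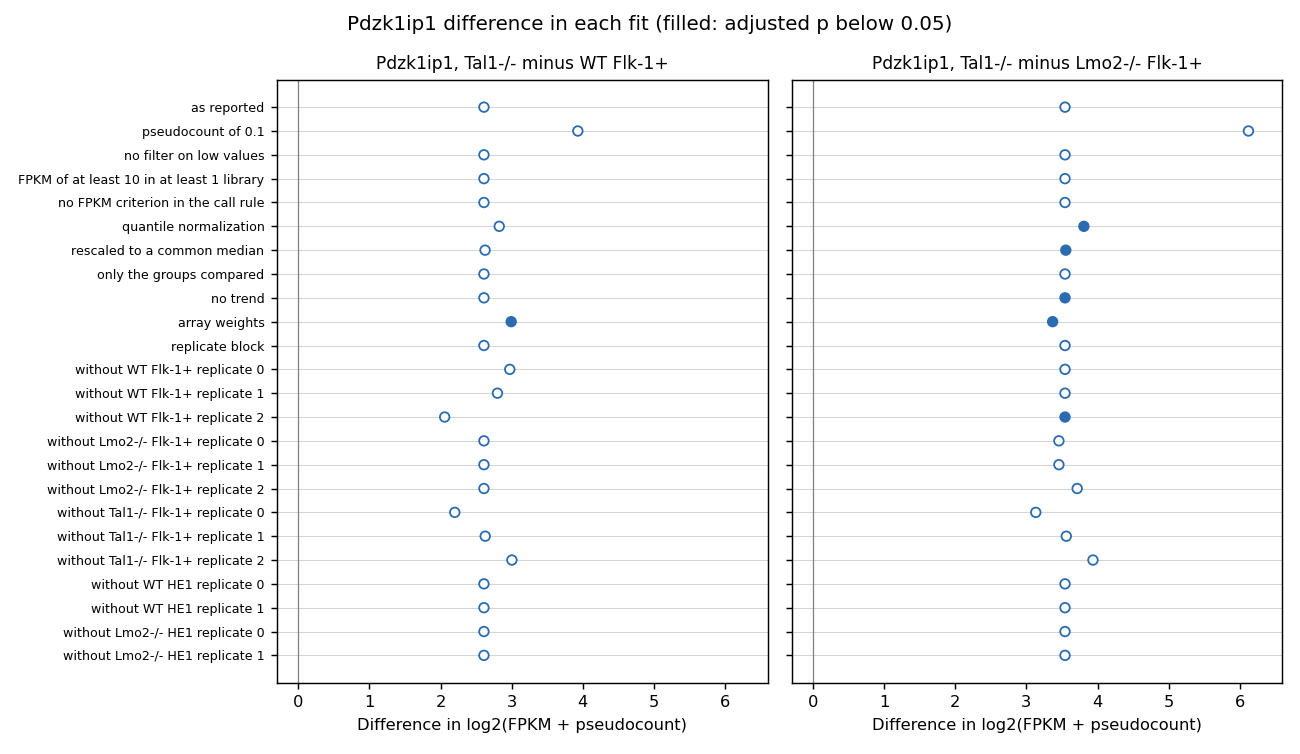
Difference of Pdzk1ip1 between Tal1-/- and WT Flk-1+ cells (left) and between Tal1-/- and Lmo2-/- Flk-1+ cells (right) on the log2(FPKM + pseudocount) axis, 1 row for each fit. Filled points have a limma adjusted p below 0.05 (1 on the left, 5 on the right), and every point lies right of 0.

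Markers of other cells differed between these groups too. The summed FPKM of Col1a1, Col1a2 and Postn, fibroblast genes looked at because ES cells were maintained on embryonic fibroblasts, was 5.64 to 13.2 in WT, 19.4 to 28.2 in Lmo2-/- and 20.3 to 32.4 in Tal1-/- Flk-1+ cells. Most of this sum was Col1a1, with 15.9 to 26.9 FPKM in Lmo2-/- and 16.2 to 30.3 in Tal1-/-. Col1a2 overlapped between these groups too, with 0.373 to 3.57 FPKM in Lmo2-/- and 0.0917 to 1.404 in Tal1-/-. Postn alone separated Tal1-/-, with 0.678 to 3.01 FPKM and a listed 0 in all 6 other Flk-1+ libraries. In HE1, where Pdzk1ip1 was listed at 0, Postn had 12.4 to 19.97 FPKM in WT and 99.66 to 371.6 in Lmo2-/-. By the study's methods the ES cells were taken off the feeders before differentiation, and Flk-1+ cells and HE1 were then sorted. The sum of Pou5f1, Nanog and Zfp42, which mark pluripotent cells, was 11.9 to 15.0 in WT, 2.77 to 7.07 in Lmo2-/- and 6.89 to 22.9 in Tal1-/-. Its member Zfp42, low throughout, was at 0.560 to 0.998 FPKM in Tal1-/- against at most 0.547 in the 6 others. The other members overlapped between Tal1-/- and WT. Pou5f1 had 2.70 to 16.4 FPKM in Tal1-/- and 7.91 to 13.6 in WT, and Nanog 3.19 to 6.30 and 1.42 to 3.69. The part of these cells in the Pdzk1ip1 value was not tested, and in bulk RNA fewer cells of a type cannot be told apart from less RNA per cell.

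Immediately beyond Pdzk1ip1 lies Cyp4x1, a cytochrome P450 gene on the opposite strand (chromosome 4, 115106323 to 115134281), with its antisense gene Cyp4x1os (115133832 to 115137864), which overlaps its start by 450 bp. In Flk-1+ cells Cyp4x1 had 0.654, 0.686 and 0.484 FPKM in WT and 0.266, 0.133 and 0.449 in Lmo2-/-. It was listed at 0 in all 3 Tal1-/- and all 4 HE1 libraries. A listed 0 in all 3 Tal1-/- libraries beside 6 other Flk-1+ libraries above 0 was a pattern of 65 (0.154%) of the 42236 genes with a locus over 200 bp. Only 19692 of these genes were above 0 in any library. The Tal1-/- libraries had 12768 to 13888 genes above 0, and the 6 other Flk-1+ libraries 13345 to 15641. Cyp4x1 is the 1 neighbour of 10 that missed the filter on low values. In a fit without the filter, it differed by -0.68 between Tal1-/- and WT (standard error 0.12, limma adjusted p = 0.112 over 19692 genes) and by -0.35 between Tal1-/- and Lmo2-/- (limma adjusted p = 0.73).

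Cyp4x1os showed the opposite order. In Tal1-/- cells its values were 1.26, 2.93 and 2.40 FPKM, and it was listed at 0 in the 10 others. It met the filter on low values through its Tal1-/- libraries alone, so that among tested genes it had to be higher there. Its difference was 1.64 against both WT and Lmo2-/- (standard error 0.29 in both, limma adjusted p = 0.126 and 0.17, over the alternatives 0.0267 to 0.502 and 0.0486 to 0.609), and its mean FPKM was too low for a call. The library kit keeps strand, but whether strand was used in the counting is not given in the sources used here, so the reads of the overlap may belong to either gene. These differences are all small in FPKM, and with the exact depth unknown a value listed at 0 does not show that a transcript is missing.

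On the other side of Tal1 the neighbours gave no such pattern. Stil, which encodes a protein needed to duplicate centrioles and ends 13.23 kb before Tal1 (chromosome 4, 115000159 to 115043196), had 16.9, 7.11 and 9.90 FPKM in WT, 11.7, 9.30 and 7.04 in Lmo2-/- and 11.4, 12.0 and 18.0 in Tal1-/- Flk-1+ cells. All 3 groups overlapped, and the difference between Tal1-/- and WT was 0.32 (95% interval -0.46 to 1.10, limma adjusted p = 0.988). Cmpk1, a nucleotide kinase gene 69.185 kb upstream (114959336 to 114987241, opposite strand), had 2.25, 2.39 and 2.004 FPKM in WT, 2.96, 4.04 and 2.21 in Lmo2-/- and 3.20, 6.75 and 2.16 in Tal1-/-. Its difference between Tal1-/- and WT was 0.55 (95% interval -0.52 to 1.62, limma adjusted p = 0.987), and replicate 1 of Tal1-/- was the highest value of all. For both genes the interval still holds a difference of 1 on the log2 scale.

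**Figure D2:**
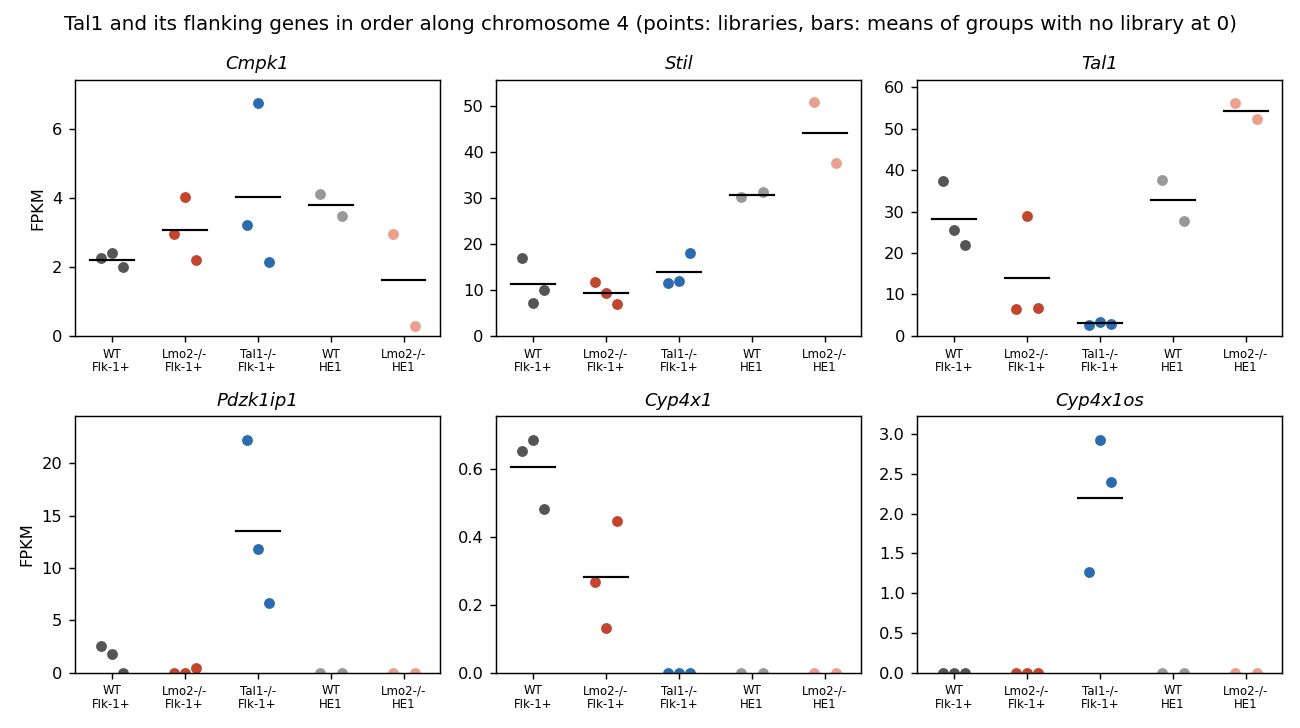
FPKM of Tal1 and the genes around it in the 13 libraries, in their order along chromosome 4, with each point a library and a bar at the mean of each group that has no library at 0. Pdzk1ip1 and Cyp4x1os were highest in Tal1-/- Flk-1+ cells, the group through which alone Cyp4x1os met the filter on low values. Cyp4x1 was listed at 0 in Tal1-/- Flk-1+ cells, and Stil was highest in HE1.

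The sequence before 3 start sites is shown: Pdzk1ip1 as the neighbour that differed most, Tal1 as the gene targeted beside it, and Stil as the closest neighbour on the other side. The RefSeq promoter table for GRCm38.p6 held 8 of the 10 neighbours; Fbxo3 and Cyp4x1 are named only. In the 250 bases upstream of each start, the letters AGATAA and TGATAA, to which GATA factors bind, and the E-box CAGATG were searched on both strands and are in capitals.
Pdzk1ip1 (chr4:115088458-115088707, plus strand): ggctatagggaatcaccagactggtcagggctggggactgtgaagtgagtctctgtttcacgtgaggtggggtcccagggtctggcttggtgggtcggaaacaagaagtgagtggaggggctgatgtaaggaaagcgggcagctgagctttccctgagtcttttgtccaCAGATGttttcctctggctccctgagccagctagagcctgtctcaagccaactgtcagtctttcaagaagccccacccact
Tal1 (chr4:115056176-115056425, plus strand): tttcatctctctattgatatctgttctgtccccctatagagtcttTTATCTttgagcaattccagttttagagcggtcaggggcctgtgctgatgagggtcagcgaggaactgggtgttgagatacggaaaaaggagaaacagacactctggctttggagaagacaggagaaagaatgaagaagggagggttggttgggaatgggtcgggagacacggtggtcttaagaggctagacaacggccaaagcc
Stil (chr4:114999868-115000117, plus strand): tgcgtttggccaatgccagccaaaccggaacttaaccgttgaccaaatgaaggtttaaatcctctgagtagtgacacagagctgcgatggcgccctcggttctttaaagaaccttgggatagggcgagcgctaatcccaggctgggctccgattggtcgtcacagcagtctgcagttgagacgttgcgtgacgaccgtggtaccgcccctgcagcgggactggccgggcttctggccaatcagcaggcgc
The window before Pdzk1ip1 held 1 CAGATG, at -81 from the start, and 4 matches to the general E-box CANNTG, of which CAGATG is one form. Of 32851 promoters in the table, 14.4% held CAGATG, 66.2% CANNTG, 9.99% AGATAA and 7.94% TGATAA. Tal1 held 1 AGATAA on the minus strand, at -205, before the first of its listed starts. The windows of the other 7 neighbours in the table held none of the 3 capital motifs. A match is a run of letters and no evidence that a factor binds there.

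Around Lmo2 no neighbour differed in the Lmo2-/- cells as Pdzk1ip1 did in Tal1-/- cells. No gene was called between Lmo2-/- and WT Flk-1+ cells (0.0%), the targeted gene included. At an unadjusted limma p below 0.05 there were 307 genes (2.22%) and 0 of the 9 tested neighbours. The differences of the 6 neighbours of Lmo2 ran from -0.76 to 0.31, with a median of -0.20 against -0.01 over all genes tested. Lmo2 itself differed by -2.55.

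Nat10, an acetyltransferase gene whose product modifies RNA, was the single neighbour whose Lmo2-/- libraries did not overlap WT. It lies 196.716 kb upstream of Lmo2 on the opposite strand (chromosome 2, 103721256 to 103761270) and had 38.6, 26.4 and 21.1 FPKM in WT against 17.5, 13.9 and 18.7 in Lmo2-/- Flk-1+ cells. All 3 Lmo2-/- libraries were lower, as in 4.22% of all tested genes. The difference was -0.71 (standard error 0.46, 95% interval -1.71 to 0.28, limma adjusted p = 1), and the two-sided exact permutation test gave p = 0.10. Tal1-/- Flk-1+ cells, at 29.6, 16.9 and 22.6 FPKM, overlapped both groups.

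Of the listed neighbours the closest to Lmo2 is Fbxo3, an F-box gene whose product picks substrates for ubiquitin ligation, 45.843 kb downstream (104027721 to 104063240). The deposited table gives Fbxo3 and Lmo2 the same locus, and how reads between them were divided is not given in the sources used here. Fbxo3 had 7.14, 3.53 and 5.86 FPKM in WT, 5.95, 2.91 and 4.18 in Lmo2-/- and 4.04, 3.45 and 4.33 in Tal1-/- Flk-1+ cells. The groups overlapped, with a difference between Lmo2-/- and WT of -0.28 (95% interval -1.33 to 0.77). Lmo2 itself was lower in every Flk-1+ knockout library than in WT Flk-1+ cells.

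Among the listed neighbours, Cd59a and Caprin1 are the next on either side. Cd59a, which encodes a membrane protein that blocks complement lysis, lies 113.923 kb downstream (104095801 to 104115354) and had 0.730, 2.23 and 3.97 FPKM in WT 1.11, 0 and 1.71 in Lmo2-/- and 1.10, 2.56 and 0.959 in Tal1-/- Flk-1+ cells. Caprin1, an RNA-binding protein gene of stress granules, lies 160.337 kb upstream (103762941 to 103797649) and had 166, 83.2 and 117 FPKM in WT, 115, 132 and 83.9 in Lmo2-/- and 120, 88.1 and 115 in Tal1-/-. Neither gene separated the genotypes, and the 95% intervals of the difference between Lmo2-/- and WT were -2.01 to 0.50 for Cd59a and -0.78 to 0.55 for Caprin1. The narrow interval of Caprin1, the most highly expressed neighbour, leaves less room than that of the weakly expressed Cd59a.

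Farther upstream, Cat, which encodes catalase (472.826 kb away, 103453849 to 103485160), had 13.5, 13.1 and 9.66 FPKM in WT, 10.8, 14.7 and 11.8 in Lmo2-/- and 7.97, 11.8 and 12.99 in Tal1-/-. Abtb2, an ankyrin repeat and BTB domain gene (239.563 kb away, 103566310 to 103718423), had 4.72, 1.95 and 1.96 FPKM in WT, 3.37, 3.28 and 4.10 in Lmo2-/- and 5.11, 0 and 0.931 in Tal1-/-. Both overlapped between all genotypes of Flk-1+ cells. Cat varied least of these, by 0.05 between Lmo2-/- and WT (95% interval -0.75 to 0.84).

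**Figure D3:**
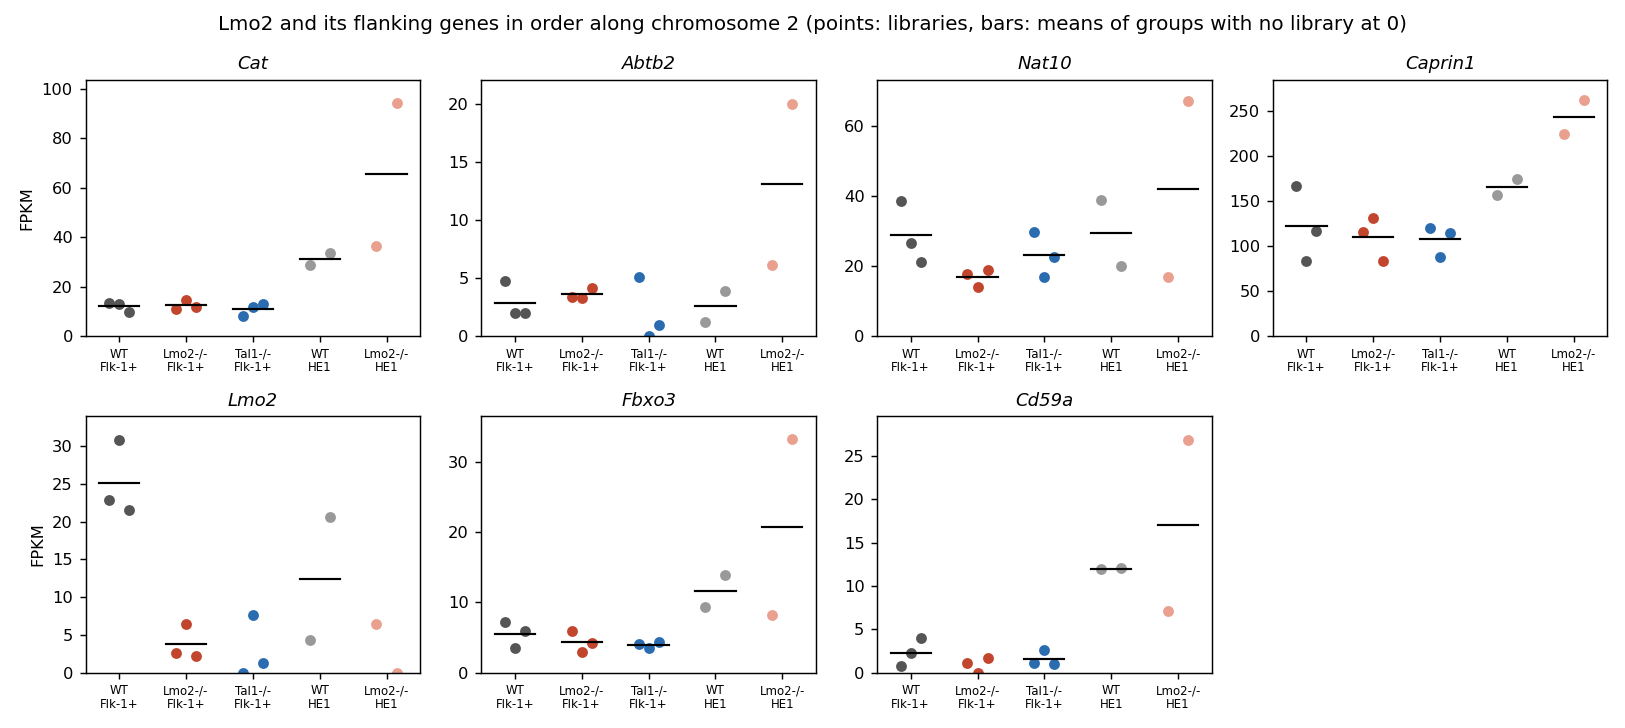
FPKM of Lmo2 and the genes around it in the 13 libraries, in their order along chromosome 2, with each point a library and a bar at the mean of each group that has no library at 0. Lmo2 separated WT from both knockouts in Flk-1+ cells, Nat10 separated WT from Lmo2-/- alone, and in HE1 replicate 1 of Lmo2-/- was the highest library for each of the 6 neighbours.

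All genes within 1 Mb of the targeted genes were taken next, 54 around Lmo2 with 19 tested and 51 around Tal1 with 11 tested. Distances here are between the loci of the deposited table, where that of Lmo2 takes in Fbxo3, so that Eif3m counts although GENCODE puts it 1017.778 kb from Lmo2. None was called in any comparison of genotypes. Around Lmo2 the median difference was -0.28 between Lmo2-/- and WT Flk-1+ cells, and 13 of the 19 genes were lower, beside 50.9% of all tested genes. Without any 1 library that median lay between -0.34 and -0.10. Around the same gene it was -0.20 in Tal1-/- against WT, in cells in which the Lmo2 locus was not targeted, and -0.00086 without Tal1-/- replicate 1. Around Tal1 the median was -0.45 in Lmo2-/- against WT, and -0.04 without the filter on low values. In Tal1-/- against WT it was 0.11 and had no stable sign, with -0.22 without Tal1-/- replicate 0, -0.07 without WT replicate 1, -0.16 with array weights and -0.03 without Cyp4x1os. The median over all genes was -0.01 in both comparisons, which share the WT libraries.

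Libraries that stood apart from both other genotypes were also counted. Among the 13248 genes that met the filter without the Tal1-/- libraries, 298 (2.25%) had all 3 Tal1-/- libraries above the 6 other Flk-1+ libraries, and within 1 Mb of Tal1 this held for 1 of 10, Pdzk1ip1. Tal1-/- libraries below the 6 others were found in 438 genes (3.17%) and in 0 of the 11. In 119 genes (0.862%) all 3 Lmo2-/- libraries were below the 6 others, among them Depdc7 as 1 of the 19 tested genes within 1 Mb of Lmo2 and Uqcrh as 1 of the 11 around Tal1, which was not targeted in these cells. In 126 genes (0.913%) they were above, with 0 of the 19 and 0 of the 11, a count that takes in genes that met the filter through Lmo2-/- libraries. Among the 13343 genes that met it without the Lmo2-/- Flk-1+ libraries it was 103 (0.772%), again with 0 of the 19 and 0 of the 11. Uqcrh, a respiratory chain gene, had 27.4, 37.8 and 30.7 FPKM in Lmo2-/- and 38.3 or more in the 6 others. Depdc7 had 0.419, 0.341 and 0.604 FPKM in WT and 0.266, 0.329 and 0 in Lmo2-/-, and with 1.80, 1.46 and 2.57 FPKM in Tal1-/- it was there above the 6 others, the values through which it met the filter. The remaining genes named by their size of difference were Cstf3, a factor of messenger RNA 3′ end formation, at -0.39 in Lmo2-/- against WT, and Nsun4, a methyltransferase gene of mitochondrial RNA, at -1.02 in Tal1-/- against WT. For Nsun4 the difference from WT was also -1.02 in Lmo2-/-, with 4.21, 6.10 and 11.5 FPKM in WT, 2.95, 2.73 and 2.77 in Lmo2-/- and 2.32, 2.96 and 3.18 in Tal1-/-.

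**Figure D4:**
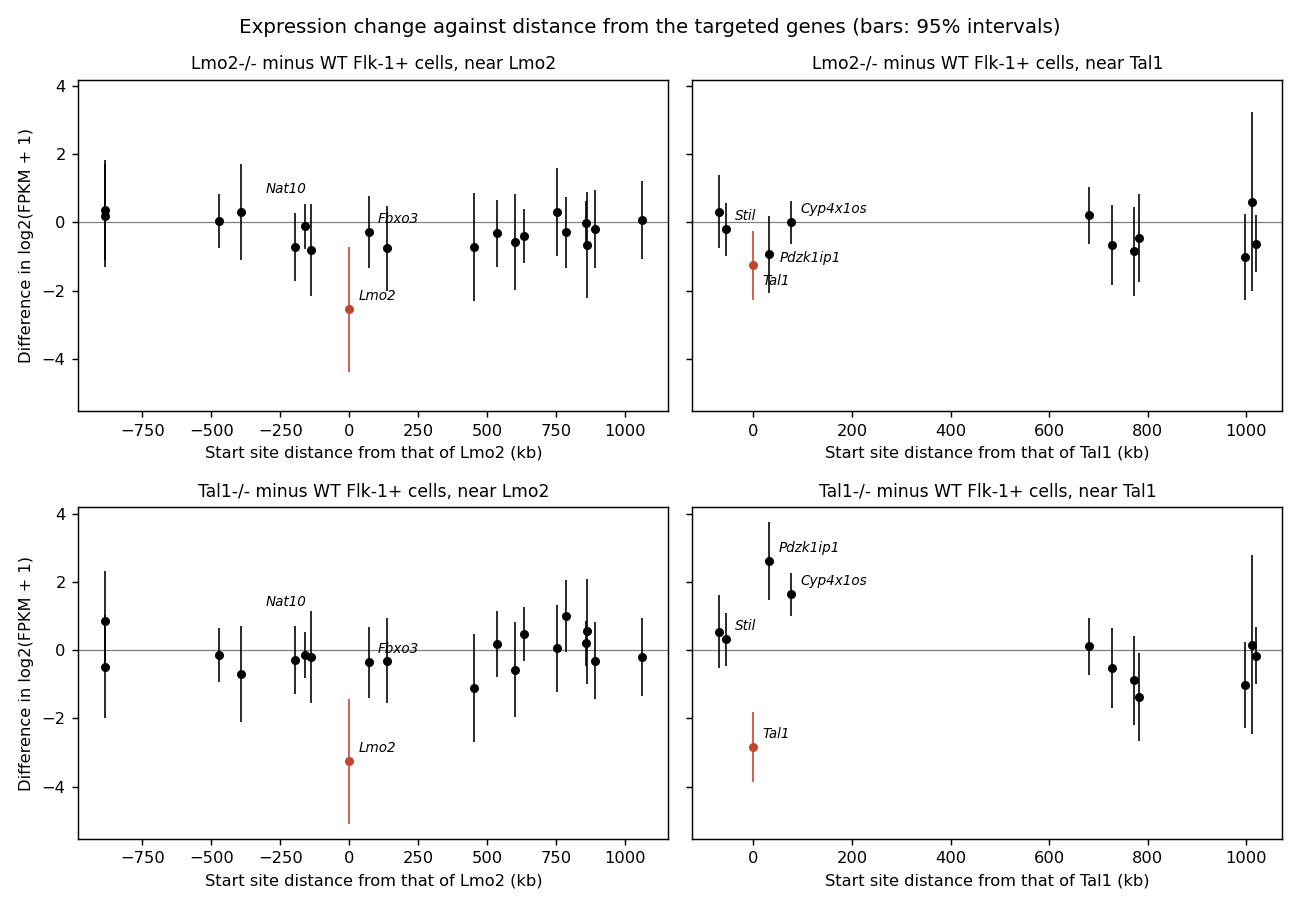
Difference in log2(FPKM + 1) from WT Flk-1+ cells in Lmo2-/- (top) and Tal1-/- (bottom) for tested genes within 1 Mb of Lmo2 (left) and Tal1 (right), against the distance of their start sites in kb, with 95% intervals. The targeted genes are in red, and of their neighbours only Pdzk1ip1 and Cyp4x1os, at bottom right, have intervals wholly above 0, while Mknk1 around Tal1 has one wholly below 0 in Tal1-/- cells (-2.66 to -0.08). Cyp4x1os met the filter on low values through its Tal1-/- libraries alone, so that its difference there had to be positive.

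In HE1 the neighbours did not differ by genotype beyond the threshold. Between Lmo2-/- and WT HE1, 3.01% of all genes and 0 of the 9 tested neighbours were called. All 6 neighbours of Lmo2 had positive differences, from 0.22 to 1.89, where 55.0% of all genes did and the median over all genes was 0.15. This depended on the scaling: with quantile normalization Caprin1 (-0.02), Nat10 (-0.21) and Cd59a (-0.19) were negative, and with a common median Nat10 (-0.22) and Cd59a (-0.25) were. Abtb2 had the largest, with 1.21 and 3.91 FPKM in WT and 6.13 and 20.01 in Lmo2-/- HE1 (1.89, standard error 0.80, limma adjusted p = 0.201). Cat had 28.8 and 33.5 FPKM in WT and 36.3 and 94.5 in Lmo2-/- HE1 (0.90, limma adjusted p = 0.284). The Lmo2-/- values of both were higher than the WT values, as in 25.9% of all genes, and 2 against 2 libraries cannot give an exact permutation p below 0.333. On the Tal1 side, Cmpk1 had 2.95 and 0.283 FPKM in Lmo2-/- against 4.12 and 3.49 in WT HE1 (-1.09, limma adjusted p = 0.33), with both Lmo2-/- values lower, as in 13.8% of all genes.

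Many of these HE1 values turned on 1 library. Lmo2-/- HE1 replicate 1, the library with the fewest genes above 0, had the highest value of all 13 libraries for each of the 6 neighbours of Lmo2. Without it the difference between Lmo2-/- and WT HE1 was -0.69 for Nat10, -0.44 for Fbxo3 and -0.67 for Cd59a, where it had been 0.27, 0.51 and 0.22, and it was 0.22 for Cat and 1.11 for Abtb2. Without replicate 0 of Lmo2-/- HE1 instead, Cat passed the threshold (1.57, limma adjusted p = 0.0213). The summed fibroblast markers were 151 to 728 FPKM in Lmo2-/- HE1 against 25.1 to 35.7 in WT HE1, and their part in the HE1 values was not tested.

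Between the stages, several neighbours were higher in HE1 than in Flk-1+ cells. In WT cells 1 of the 9 tested neighbours was called, where 6.98% of all genes were. This was Stil, with 30.3 and 31.2 FPKM in WT HE1 against 7.11 to 16.9 in WT Flk-1+ cells. It rose by 1.44 on the log2 scale (standard error 0.40, limma adjusted p = 0.0384), to 30.7 ± 0.68 FPKM (SD, n = 2) from 11.3 ± 5.04 (SD, n = 3). The call was lost without WT Flk-1+ replicate 1 or 2, without either WT HE1 library and without Lmo2-/- Flk-1+ replicate 0 or 1 (adjusted p 0.0507 to 0.185), with quantile normalization (0.203), with a common median (0.182), with these groups fitted alone (0.0939) and with the replicate block (0.0702). Cd59a, at 11.9 and 12.0 FPKM in WT HE1 against 0.730 to 3.97 in WT Flk-1+ cells, missed the threshold (2.1, standard error 0.65, limma adjusted p = 0.0601), as did Cat, at 28.8 and 33.5 against 9.66 to 13.5 (1.31, limma adjusted p = 0.0652). Without either Lmo2-/- HE1 library, whose spread enters the fit, Cd59a and Cat passed as well (adjusted p 0.0184 to 0.0278).

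In Lmo2-/- cells 5 of the 9 tested neighbours were called between the stages, all higher in HE1, where 19.6% of all genes were called and 17.2% were called higher. Stil rose by 2.14 (limma adjusted p = 0.00247), Cat by 2.16 (0.0027), Cd59a by 3.07 (0.00465), Caprin1 by 1.16 (0.0266) and Fbxo3 by 1.76 (0.0303). Stil had 50.9 and 37.5 FPKM in Lmo2-/- HE1 against at most 11.7 in Lmo2-/- Flk-1+ cells, and Cd59a had 7.16 and 26.8 against at most 1.71. The median over all genes was 0.30 in this comparison and 0.11 in the WT one, and relative to it Caprin1 was higher by 0.85 and Stil by 1.83. Without Lmo2-/- HE1 replicate 1, 2 of the 5 stayed called, Stil and Cat, and Fbxo3 was at 0.81 (adjusted p = 0.314). Without Lmo2-/- Flk-1+ replicate 2 there were 3, with Caprin1 (adjusted p = 0.0949) and Fbxo3 (0.073) lost. With the replicate block 3 were called, Stil, Cat and Cd59a. With quantile normalization 2 were called and with a common median 1, and under these scalings Caprin1 was at 0.25 and 0.15.

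The interaction term asked whether the stages differed more in one genotype than in the other, and there 0.348% of all genes and 0 of the 9 tested neighbours were called. Their values ran from -1.41 for Cmpk1 to 1.58 for Abtb2, with limma adjusted p of 0.489 or more. The 5 calls in Lmo2-/- cells and the 1 in WT cells are therefore not shown to differ. Pdzk1ip1 was not called between the stages of either genotype, and with HE1 listed at 0 no fold is given.

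By level, Caprin1 was the highest neighbour in all 13 libraries, at 83.2 to 263 FPKM. In Flk-1+ cells Nat10 came next by the mean of each genotype, at 28.7 ± 8.99 in WT, 16.7 ± 2.50 in Lmo2-/- and 23.0 ± 6.37 FPKM in Tal1-/- (SD, n = 3 each). Cat and Stil followed in WT at 12.1 ± 2.08 and 11.3 ± 5.04 FPKM (SD, n = 3 each), within their spread of each other, and Pdzk1ip1 passed Cat in the mean of Tal1-/- Flk-1+ cells alone, at 13.5 ± 7.94 against 10.9 ± 2.63 FPKM (SD, n = 3 each), within the spread. The genes most like Pdzk1ip1 over the 13 libraries, by the root mean square difference of centred log2(FPKM + 1), were Tex15 (0.62), Gbx2 (0.84) and Fst (0.87), on chromosomes 8, 1 and 13. Those most like Cd59a were Ppp1r9a (0.51), Pdia5 (0.53) and Rusc2 (0.53), on chromosomes 6, 16 and 4. None of these 6 lies within 1 Mb of Tal1 or Lmo2.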

How the data were processed

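RNA with poly(A) tails was sequenced in pairs with a strand-keeping kit. The authors aligned reads with TopHat2 2.0.9 to GRCm38 and used Cufflinks 2.0.0, Cuffmerge and Cuffdiff 2.0.1. Cuffnorm FPKM of each library were deposited by the authors, scaled for library size and transcript length, beside FPKM per condition and fold changes with p-values of their own comparisons, which were not used. All per-library columns were used (0 left out). ChIPseq and DNase data were not analysed here.

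Tests covered 13802 of 45250 genes, those whose locus exceeded 200 bp and whose FPKM reached 1 in 2 or more of 13 libraries. A single limma model (3.58.1, R 4.3.3, trended variance) of log2(FPKM + 1) held the 5 groups, with adjustment over all genes. Differences are on that scale, which understates those of low genes. Exact permutation tests were run for single genes. The fit was tested on simulated data. Tables and plots were made in Python 3.11.15 (matplotlib 3.10.9, pandas 2.3.3, numpy 2.4.6; permutations in scipy 1.17.1). Positions are from GENCODE for GRCm38, and distances to a targeted gene run between the nearest ends; windows were set on the table's own loci.

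The members and gene lists were chosen with earlier results of these data known. Named were the 10 neighbours, both targeted genes, any gene within 1 Mb called between genotypes, up to 3 such genes per knockout with the largest difference among those whose libraries did not overlap WT, and the 3 genes most like the neighbour that varied most on each side. Other genes are named because they mark cell types, or to spell out a count of 5 or fewer after its values were seen. Alternatives were another pseudocount, 2 other filters, no FPKM criterion, 2 rescalings, separate fits, no trend, array weights, a replicate block, each library left out and 2 other windows, and, chosen after seeing the data, a filter met by the libraries outside the knockout.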

Additional observations from a re-analysis of the deposited data

How the results depend on the processing

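The number of neighbours called moved in 5 of the 7 comparisons; where no construction explains a move, the cause was not tested. Between Tal1-/- and WT Flk-1+ cells array weights gave 1 called neighbour, Pdzk1ip1, where there had been 0. Between Tal1-/- and Lmo2-/- Flk-1+ cells there was 1, again Pdzk1ip1, with quantile normalization, a common median, no trend or array weights, and 0 to 1 with each library left out. Between WT and Lmo2-/- HE1 it was 0 to 1 with each library left out. Between the WT stages the 1 call became 0 with quantile normalization, a common median or only the groups compared, 3 with array weights and 0 to 3 with each library left out. Between the Lmo2-/- stages the 5 calls became 2 with quantile normalization, 1 with a common median, 1 with only the groups compared, 2 with array weights and 2 to 6 with each library left out. With a window of 500 kb around Tal1 the median of its 4 tested genes was 1.09 in Tal1-/- against WT and 1.08 against Lmo2-/-, where fewer genes were tested; Cyp4x1os, 1 of the 4, met the filter through Tal1-/- alone and Cyp4x1 did not meet it, so nothing is read from these medians.

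Replicate numbers come from the column names, and no source says that they pair the libraries. The mean correlation of the deviations of same-numbered libraries was -0.13 between WT and Lmo2-/- and 0.12 between WT and Tal1-/- Flk-1+ cells, in the latter with pairs from 0.074 to 0.169. With the replicate block the stage comparison called 0 neighbours in WT and 3 in Lmo2-/- cells, and the other counts were as before.

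No called value changed sign. Among 1442 member values under 23 alternatives, 40 changed sign, none of them from a difference larger than 0.99 (Nat10 between the Lmo2-/- stages, with quantile normalization). The unknown exact depth of each library, 2 HE1 libraries a group and values listed at 0 limit all of these results.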
